A study of Mus musculus with 8 samples.

Results

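Genes of the enzymes that hydrolyse esters or conjugate drugs, dietary compounds and hormones were compared between Lgr4 null and wild-type intestinal crypt cells. They were all gene symbols of the array's gene table that start with Ces, Ugt or Sult and a digit, or with Gst, a class letter (a, m, p, o, t, k or z) and a digit. This gave 62 of the 15123 genes measured: 11 carboxylesterases (Ces), 19 UDP-glycosyltransferases (Ugt), 12 sulfotransferases (Sult) and 20 cytosolic or organellar glutathione S-transferases (Gst). They lay on 94 probes, and 41 of them had 1 probe and 21 several, which were averaged. No filter on low values was used, so all 62 were tested.

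Each of 8 2-colour arrays held crypt RNA of mice carrying the gene-trap allele Lgr4/Gpr48 Gt. On the arrays of untreated cells it was compared with crypt RNA of wild-type mice. Both genotypes were on the outbred CD1 background. Lgr4 encodes a membrane receptor of R-spondins, which amplify Wnt signals. The groups of 2 arrays each were crypt cells on day 0, on day 0.5 and on day 1 of culture, and crypt cells given LiCl on day 1. LiCl is an inhibitor of the kinase GSK3 that stabilises beta-catenin. Sources disagree on whether the other channel of the LiCl arrays held LiCl-treated wild-type cells or control cells. The labels state no age or sex, and the trap is carried by every cell rather than by the epithelium alone. Nothing in the labels tells whether a group's arrays hold separate animals or cultures, so p-values cover only the spread among these arrays, possibly a technical one. Each value is a log ratio, taken as log2, with null over wild type as the likely direction on the untreated arrays. Ratios carry no level, so neither the tissue nor the abundance of a gene could be checked, and no probe used carries the name Lgr4. Over all probes the SD of an array was 0.473 and 0.441 at day 1 and 0.247 to 0.335 on the other 6. Crypt preparations hold several cell types, and in such bulk RNA fewer cells of a type and less RNA per cell cannot be told apart.

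Carboxylesterases cleave ester and amide bonds of drugs and of lipids in the endoplasmic reticulum. The other 3 families transfer a sugar (mostly glucuronic acid), a sulfate group or glutathione onto their substrates, which makes these more soluble and marks them for export. In the intestine such enzymes are best known from mature absorptive cells of the villus, where they act on what is taken up with food before it reaches the liver.

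At day 1, 28 of the 62 genes were higher in null crypts and 0 lower, at an adjusted p under 0.05 in a limma fit of all 8 arrays over all 15123 genes. Of all genes 9.38% were higher and 11.1% lower by the same rule. At an unadjusted p under 0.05, 35 members were higher and 0 lower, against 14.3% of all genes higher, and with the replicate number as a block 30 were higher, against 11.8% of all genes. The median fitted log2 ratio of the 62 genes was 0.40, against 0.00 for all genes, and 52 of the 62 lay above 0. Of the 28 genes 16 differed at least 2-fold, against 5.77% of all genes. By family, 12 of 20 Gst genes, 6 of 11 Ces genes, 8 of 19 Ugt genes and 2 of 12 Sult genes passed. In that order the family medians were 0.73, 0.66, 0.23 and -0.02. The Ugt median rose above the Ces and Gst values given here when the probe of largest mean absolute ratio stood for each gene. Arrays scaled to equal spread took away the calls of Ugt2b5, Ugt1a1, Ugt1a5, Ugt1a7c, Ugt1a10, Ces1d, Gsta2 and Gstt3. Over all genes scaling gave 1780 calls against 3103. Gsta3 and Gstm2 were not followed through that refit. No test between families was made, because members share chromosome clusters and sequence and are not replicates. The count of 28 rests in part on the first day 1 array. It fell without either day 1 array, further without the first, and so did the count over all genes.

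**Figure D1:**
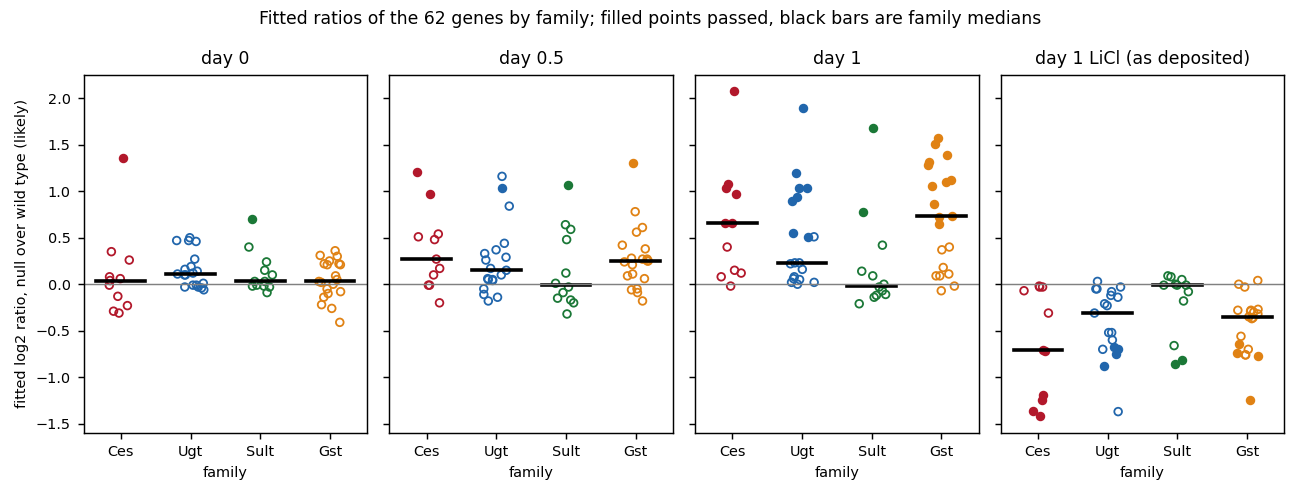
Fitted log2 ratio (y axis, null over wild type in the likely direction) of the 62 genes by family (x axis) in each of the 4 groups, 1 point a gene, filled where the adjusted p was under 0.05 and open otherwise, with black bars at the family medians. At day 1 the Ces, Ugt and Gst points spread upwards from 0, while the Sult median stays at -0.02 with 2 filled points above it.

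The earlier groups held fewer calls. At day 0, 2 members were higher (Ces1f and Sult1d1) and 0 lower, against 1.22% of all genes higher and 1.01% lower. With the replicate number as a block 5 members were higher, with Ugt1a10, Ugt2a3 and Ugt2b5 added, against 2.26% of all genes. In the limma fit of all 8 arrays 12 members had an unadjusted p under 0.05 at day 0, against 15% of all genes. Of these 8 were higher and 4 lower. Both calls at day 0 were lost without either day 0 array. That of Sult1d1 was also lost without any 1 of the arrays of day 1 or LiCl. At day 0.5, 5 members were higher (Ces2a, Ces2e, Gstm3, Sult1d1 and Ugt2b35) and 0 lower, against 0.278% of all genes higher and 0.159% lower. The block gave 8, with Sult1b1, Ugt2b34 and Ugt2b5 added, against 0.893% of all genes. Leaving out any 1 array of day 0 or day 0.5 took the count to 0, either day 1 array to 1 and either LiCl array to 2, of 16 with an unadjusted p under 0.05 on all 8 arrays, all higher, against 6.59% of all genes. For the mean of the 3 untreated groups 25 members were higher and 0 lower, against 8.9% of all genes higher and 9.75% lower, and 13 were called without the second day 0 array. Sult1d1 was the 1 member called in each of the 3 untreated groups.

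**Figure D2:**
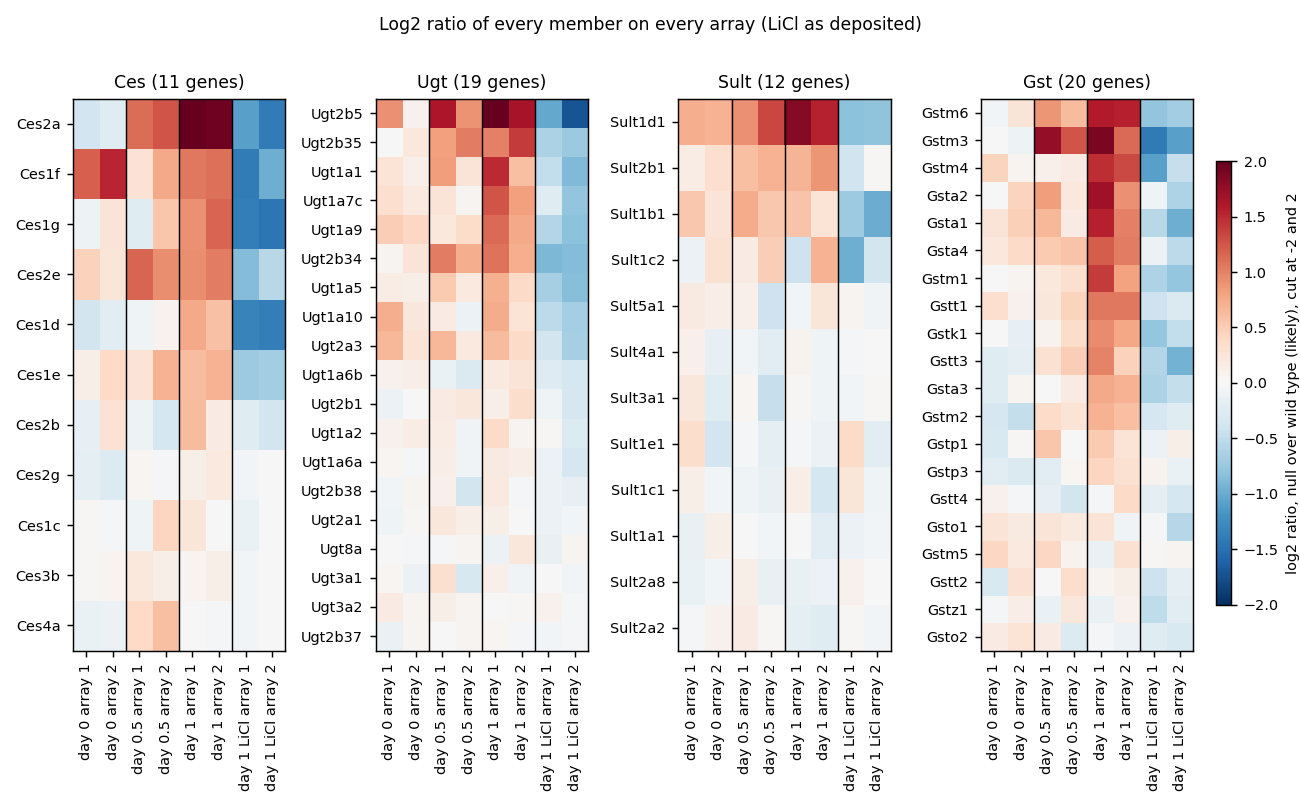
Log2 ratio of each of the 62 genes (rows, ordered by the day 1 value within a family) on each of the 8 arrays (columns). Red is above 0 and blue below it, with colours cut at -2 and 2. On the untreated arrays red stands for null higher in the likely direction, and for LiCl the direction is not settled. The red rows widen from day 0 to day 1 in the Ces, Ugt and Gst panels, the LiCl columns as deposited are blue in the same rows, and most Sult rows stay pale.

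Among the carboxylesterases, Ces2a and Ces2e belong to the type that predominates in the small intestine. Ces2a moved furthest: the arrays gave -0.38 and -0.25 at day 0, 1.12 and 1.25 at day 0.5, and 2.22 and 1.94 at day 1. The groups did not overlap, and the value turned from below 0 to the highest of all 62 genes. Its fitted log2 ratio at day 1 was 2.08 ± 0.12 (SE, n = 2 arrays; 4.23-fold, adjusted p = 0.000129). The change from day 0 to day 1 was 2.40 ± 0.17 (adjusted p = 0.00115). Ces2e was already high at day 0.5, with 1.17 and 0.93, after 0.46 and 0.24 at day 0, and stood at 0.93 and 1.02 at day 1. Its fitted day 1 value was 0.97 ± 0.11 (adjusted p = 0.00136), and the day 0.5 and day 1 arrays overlapped. The other members of that type did not pass: Ces2b had 0.63 and 0.17 at day 1, and Ces2g 0.11 and 0.20. The 300 bases around the start of Ces2a, from 250 before it to 50 after, are shown because it leads the family. They hold 0 of the 5 motifs searched, so no letter is in capitals.
Ces2a (chr8:104733753-104734052, plus strand): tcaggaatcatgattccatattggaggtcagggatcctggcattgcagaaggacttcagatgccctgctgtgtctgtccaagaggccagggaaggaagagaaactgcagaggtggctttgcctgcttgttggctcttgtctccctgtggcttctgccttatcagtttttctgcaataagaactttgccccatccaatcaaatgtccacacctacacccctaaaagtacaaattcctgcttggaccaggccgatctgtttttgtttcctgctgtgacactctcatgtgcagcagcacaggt

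The Ces1 genes, whose products act on lipid esters as well as drugs and are best known from liver, gave 4 calls of 5 at day 1. Ces1f was high in fresh crypts, with 1.20 and 1.52 at day 0, lower at day 0.5 with 0.29 and 0.76, and at 1.06 and 1.10 on day 1. Its fitted values were 1.36 ± 0.16 at day 0 (adjusted p = 0.0103) and 1.08 ± 0.16 at day 1 (adjusted p = 0.00347). Ces1f thus was the 1 called carboxylesterase whose day 1 arrays both lay below its day 0 arrays. Ces1d, a triacylglycerol hydrolase, ran the other way from below 0: -0.36 and -0.23 at day 0, -0.08 and 0.07 at day 0.5, and 0.75 and 0.58 at day 1. Its change from day 0 to day 1 was 0.96 ± 0.14 (adjusted p = 0.01). Ces1g had 0.91 and 1.16 at day 1 (fitted 1.03 ± 0.18) and Ces1e 0.62 and 0.69 (fitted 0.66 ± 0.13), and both groups lay above their day 0 arrays. Ces1c, at 0.24 and 0.00, did not pass, and neither did Ces3b and Ces4a, whose day 1 values lay between -0.04 and 0.11. The day 0.5 arrays of Ces4a, at 0.40 and 0.60, stood apart from its other 6 between -0.13 and 0.01, without passing.

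Among the UDP-glycosyltransferases, the Ugt2 genes conjugate steroids, bile acids and many drugs. Ugt2b5 had 0.92 and 0.08 at day 0, 1.62 and 0.90 at day 0.5, and 2.13 and 1.65 at day 1. The first array was the higher in each of these groups. The null RNA was in Cy5 on each of those first arrays and in Cy3 on the second of day 0 and day 1. At day 0.5 both arrays carried it in Cy5. With LiCl as deposited the first array, with the null RNA in Cy3, was also the higher, at -1.02 against -1.73. The fitted day 1 value was 1.89 ± 0.27 (3.71-fold, adjusted p = 0.0029). Ugt2b35 gave -0.01 and 0.21 at day 0, 0.82 and 1.03 at day 0.5, and 1.01 and 1.40 at day 1. Its fitted values were 1.04 ± 0.12 at day 0.5 (adjusted p = 0.0214) and 1.20 ± 0.10 at day 1 (adjusted p = 0.000431), and its change from day 0 to day 1 was 1.10 ± 0.15 (adjusted p = 0.00684). Ugt2b34 had 1.09 and 0.72 at day 1 (fitted 0.90 ± 0.13, adjusted p = 0.00299). Ugt2a3, with 0.63 and 0.38, passed with the replicate block (adjusted p = 0.00779) and not without it (0.0644). Ugt2b1, Ugt2b37, Ugt2b38 and Ugt2a1 did not pass, with day 1 arrays between -0.04 and 0.35. Ugt3a1 and Ugt3a2, of a family that uses other sugars, and Ugt8a, which makes galactosylceramide, lay between -0.12 and 0.23 at day 1 and did not pass.

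The Ugt1a genes, among them the bilirubin-conjugating Ugt1a1, lie in 1 locus in which each transcript joins an exon of its own to downstream exons that all share. At day 1, 5 of the 8 passed: Ugt1a1 with 1.49 and 0.60 (fitted 1.04 ± 0.22), Ugt1a7c with 1.26 and 0.82 (1.04 ± 0.17), Ugt1a9 with 1.13 and 0.76 (0.94 ± 0.13), Ugt1a5 with 0.71 and 0.39 (0.55 ± 0.13) and Ugt1a10 with 0.74 and 0.28 (0.51 ± 0.14). The first array was the higher for all 5. The other genes, Ugt1a2, Ugt1a6a and Ugt1a6b, had array values between 0.05 and 0.39, but these averaged probes that differed. Of the 26 Ugt1a probes 16 had a day 1 mean of at least 0.5, 10 lay between -0.5 and 0.5, and 0 lay at -0.5 or below. Each of the 8 genes had at least 1 of the 16. For Ugt1a6a, which conjugates small phenols, the 5 probes ran from -0.20 to 1.18, for Ugt1a6b the 3 ran from -0.28 to 0.98, and for Ugt1a2 the 3 ran from -0.19 to 0.84. Which exon each probe lies in was not analysed here, so a probe in a shared exon cannot be assigned to 1 of the 8 genes. With LiCl, as deposited, the 16 probes ran from -1.38 to -0.41 and the other 10 from -0.53 to 0.12, and these ranges overlapped between -0.53 and -0.41.

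**Figure D3:**
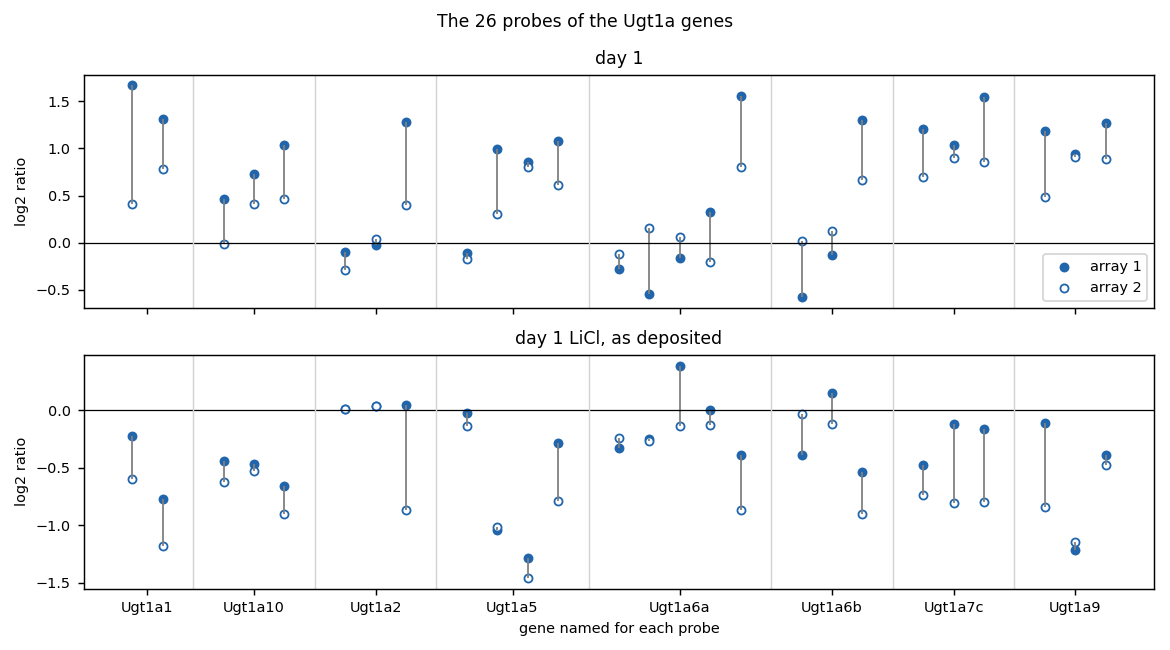
Log2 ratio (y axis) of each of the 26 Ugt1a probes at day 1 (top) and at day 1 with LiCl as deposited (bottom), grouped by the gene named for the probe (x axis), filled points for the first array, open points for the second and a line joining them. The probes named for Ugt1a2, Ugt1a5, Ugt1a6a and Ugt1a6b fall into some near 0 and at least 1 well above 0 at day 1.

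Promoter windows were searched on both strands for 5 short motifs. The core of the antioxidant response element, which Nrf2 binds, was searched as TGACNNNGC. The TATA box was searched as TATAAA, and HNF1 factors of the gut and liver as GTTAAT. Forkhead factors were searched as TGTTTAC. The caudal-type homeobox factors Cdx1 and Cdx2 were searched as TTTATNG, and no match of these motifs overlapped another in the windows shown. RefSeq windows on build GRCm38.p6 were found for 53 of the 62 genes (63 windows, since a gene may have several starts), and 32851 windows of the same length served as background. The antioxidant core occurred in 2 of the 63 windows (3.17%), those of Gsta3 and Gstm5, against 12.4% of all windows. Gsta3 passed at day 1 and Gstm5 did not. The HNF1 letters occurred in 15.9% of member windows against 7.1% of all, and in 6 of the 17 Ugt windows (35.3%). The forkhead letters occurred in 7.94% against 3.65%, and in 4 Ugt windows (23.5%). TATAAA occurred in 17.5% against 13.6%, and the caudal letters in 7.94% against 10.9%. Between members that passed at day 1 and those that did not, the HNF1 share was 16.1% against 15.6%. These are matches of letters and not binding sites, and bases more than 250 before or 50 after a start were not searched. The windows of Ugt2b5, the leading Ugt gene, and of Ugt1a9 and Ugt1a10 are shown, the last pair chosen after their matches were seen, with HNF1 matches in capitals. Ugt1a9 has 1 match, its first letter at -91 from the start, and Ugt1a10 has matches at -100 and -71. The longest run of bases that this pair shares is 32, against 7 to 11 for the other pairs of the 7 Ugt1a windows, and Ugt2b5 has no match to any of the 5 motifs.
Ugt2b5 (chr5:87140291-87140590, minus strand): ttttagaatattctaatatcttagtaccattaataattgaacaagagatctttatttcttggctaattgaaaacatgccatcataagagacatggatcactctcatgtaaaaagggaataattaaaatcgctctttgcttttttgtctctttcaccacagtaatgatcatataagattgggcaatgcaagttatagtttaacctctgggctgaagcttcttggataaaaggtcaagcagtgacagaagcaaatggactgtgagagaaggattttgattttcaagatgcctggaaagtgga
Ugt1a9 (chr1:88070529-88070828, plus strand): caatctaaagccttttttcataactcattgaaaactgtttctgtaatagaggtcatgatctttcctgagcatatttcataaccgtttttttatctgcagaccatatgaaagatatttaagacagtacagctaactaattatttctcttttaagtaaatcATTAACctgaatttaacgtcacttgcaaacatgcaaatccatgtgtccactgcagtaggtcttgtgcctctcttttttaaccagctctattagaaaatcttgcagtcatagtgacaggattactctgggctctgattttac
Ugt1a10 (chr1:88055161-88055460, plus strand): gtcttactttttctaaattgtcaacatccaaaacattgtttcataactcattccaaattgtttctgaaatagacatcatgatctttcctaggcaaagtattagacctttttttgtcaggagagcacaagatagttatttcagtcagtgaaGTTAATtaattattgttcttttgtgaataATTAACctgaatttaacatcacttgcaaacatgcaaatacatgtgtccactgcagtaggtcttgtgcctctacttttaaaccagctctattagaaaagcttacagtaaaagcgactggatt

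The sulfotransferases as a family stayed near 0, with a median of -0.02 at day 1. There 2 of the 12 passed, both higher, against 9.38% of all genes higher. Sult1d1, which in mice sulfates catecholamines and other small phenols, was the exception from the start: 0.72 and 0.69 at day 0, 0.91 and 1.34 at day 0.5, and 1.82 and 1.54 at day 1. The arrays of the 3 groups did not overlap. The fitted values were 0.70 ± 0.13 (adjusted p = 0.042), 1.07 ± 0.15 (adjusted p = 0.0407) and 1.68 ± 0.13 (adjusted p = 0.000289), and the change from day 0 to day 1 was 0.98 ± 0.18 (adjusted p = 0.0198). The first and the second of these calls were lost when 1 array was left out, among them each array of day 0. Sult2b1, which sulfates cholesterol, had 0.15 and 0.33 at day 0, 0.60 and 0.70 at day 0.5, and 0.68 and 0.89 at day 1 (fitted 0.78 ± 0.13, adjusted p = 0.00587). Sult1b1, known in humans for thyroid hormone, was above 0 on all 6 untreated arrays, between 0.25 and 0.74. Its fitted mean over the 3 untreated groups was 0.47 ± 0.08 (adjusted p = 0.00687), and its day 1 value of 0.42 passed with the block (adjusted p = 0.014) and not without it (0.064). Sult1c2 had opposite signs on the day 1 arrays, -0.42 and 0.70. The other 8, among them the oestrogen sulfotransferase Sult1e1 and the phenol sulfotransferase Sult1a1, had day 1 arrays between -0.35 and 0.24 and did not pass. The window of Sult1d1 is shown with matches in capitals, in the order HNF1 (-79), TATAAA on the opposite strand (5) and forkhead on the opposite strand (32).
Sult1d1 (chr5:87568957-87569256, minus strand): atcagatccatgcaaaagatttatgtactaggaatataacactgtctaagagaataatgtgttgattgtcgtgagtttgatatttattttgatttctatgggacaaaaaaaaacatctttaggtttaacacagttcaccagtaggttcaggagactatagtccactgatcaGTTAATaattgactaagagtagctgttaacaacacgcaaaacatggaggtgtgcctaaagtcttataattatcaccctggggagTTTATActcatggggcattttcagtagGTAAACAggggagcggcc

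Among the glutathione S-transferases the calls at day 1 fell in the alpha, mu, theta and kappa classes. All 4 alpha genes passed, with fitted values of 1.31 ± 0.24 for Gsta2, 1.28 ± 0.19 for Gsta1, 1.12 ± 0.12 for Gsta4 and 0.72 ± 0.11 for Gsta3. Gsta4, whose enzyme clears the lipid peroxidation product 4-hydroxynonenal, rose over the days, with 0.21 and 0.39 at day 0, 0.52 and 0.57 at day 0.5, and 1.21 and 1.03 at day 1. Its arrays did not overlap between days, and its change from day 0 to day 1 was 0.82 ± 0.17 (adjusted p = 0.0291). Gsta2 differed more between arrays, with 1.70 and 0.92 at day 1 and 0.84 and 0.21 at day 0.5, the first array higher in each. In the mu class 5 of 6 passed. Gstm6 gave -0.06 and 0.25 at day 0, 0.88 and 0.63 at day 0.5, and 1.59 and 1.55 at day 1 (fitted 1.57 ± 0.12, adjusted p = 0.000287). Gstm3 had 0.00 and -0.10 at day 0, then 1.75 and 1.25 at day 0.5 and 1.89 and 1.13 at day 1, so that its later groups overlapped. Gstm4 had 0.44 and 0.06 at day 0, 0.10 and 0.16 at day 0.5, and 1.47 and 1.32 at day 1. Gstm3 and Gstm4 thus had like fitted values at day 1, 1.51 ± 0.16 and 1.39 ± 0.11, and unlike values at day 0.5, 1.30 ± 0.18 (adjusted p = 0.0438) and -0.06 ± 0.13 (adjusted p = 0.904). Gstm1 (fitted 1.10 ± 0.14) and Gstm2 (0.65 ± 0.09) passed, while Gstm5, with -0.13 and 0.31, did not. The probes of Gstm1 had day 1 means of 0.47 and 1.73. These genes are close paralogs in 1 cluster, so part of the signal of a probe may come from a neighbour, which was not tested.

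Of the theta class Gstt1, with 1.06 and 1.05, and Gstt3, with 0.99 and 0.46, passed at day 1, and Gstt2 and Gstt4, with arrays between -0.03 and 0.39, did not. Gstk1, of the mitochondrial and peroxisomal kappa class, gave 0.01 and -0.17 at day 0 and 0.95 and 0.78 at day 1 (fitted 0.86 ± 0.11, adjusted p = 0.00159). The pi genes Gstp1 (0.52 and 0.28) and Gstp3 (0.43 and 0.31) were above 0 on both day 1 arrays without passing. The omega genes Gsto1 and Gsto2, which act as thiol transferases, and Gstz1, an enzyme of tyrosine breakdown, lay between -0.13 and 0.28 and did not pass. The window below is shown because Gstm6 leads the family, with its caudal match (-36) in capitals. It is 1 of 3 starts of the gene and was chosen after the matches were seen, as the 1 that holds any, since the other 2 hold 0 of the motifs searched.
Gstm6 (chr3:107943685-107943984, minus strand): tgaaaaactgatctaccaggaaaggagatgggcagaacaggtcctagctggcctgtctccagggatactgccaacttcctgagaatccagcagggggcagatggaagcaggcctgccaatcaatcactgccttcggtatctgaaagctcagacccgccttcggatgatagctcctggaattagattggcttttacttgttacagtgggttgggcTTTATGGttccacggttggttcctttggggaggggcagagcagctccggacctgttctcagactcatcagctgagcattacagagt

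Neighbouring genes did not always move together. On chromosome 5, 11 members of the Ugt2 and Sult1 groups neighbour each other, and 4 of them passed at day 1 (Ugt2b5, Ugt2b35, Ugt2b34 and Sult1d1), with fitted values from -0.07 for Sult1e1 to 1.89 for Ugt2b5. On chromosome 8, the 5 Ces1 genes gave 4 calls and the 6 neighbouring Ces2, Ces3 and Ces4 genes gave 2, from -0.02 for Ces4a to 2.08 for Ces2a. On chromosome 10, 2 of 4 theta genes passed. Of 6 mu genes on chromosome 3, 5 passed, with fitted values from 0.09 for Gstm5 to 1.57 for Gstm6. Gsta1, Gsta2 and Gsta4 all passed on chromosome 9, with fitted values from 1.12 to 1.31. In the Ugt1a locus 5 of 8 passed. Of all genes 9.38% were higher at day 1.

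The change of the ratio between days was tested in the same fit. From day 0 to day 1, 14 members rose and 0 fell, against 3.6% of all genes that rose and 4.79% that fell. These were 10 Gst genes, Ces2a, Ces1d, Ugt2b35 and Sult1d1, with changes from 0.82 (Gsta3 and Gsta4) to 2.40 (Ces2a). With the replicate block 23 rose, against 5.67% of all genes. Without the first or the second day 0 array 1 and 2 members rose, and without the first or the second day 1 array 2 and 8. From day 0 to day 0.5, 0 members changed in the limma fit, 12 had an unadjusted p under 0.05 (10 upwards), against 8.83% of all genes in either direction, and the block called Ces2a (adjusted p = 0.033). Of all genes 0.0727% rose without the block and 0.185% with it. The highest fitted changes over that interval were 1.53 for Ces2a and 1.35 for Gstm3. From day 0.5 to day 1, Gstm4 rose by 1.46 ± 0.17 (adjusted p = 0.014) and no other member passed, against 0.555% of all genes. The block called 4 (Gstm4, Ugt1a7c, Gstk1 and Gstt1), against 1.49% of all genes, and 0 to 2 were called when 1 array was left out, with 0 without any 1 of the arrays of day 0, day 0.5 or day 1. In 34 of the 62 genes both day 1 arrays lay above both day 0 arrays, against 24% of all genes, and in 4 both lay below, against 24.8%. The group means rose in the order day 0, day 0.5, day 1 for 29 of 62 members and for 3061 of 15123 genes. Both arrays of day 0.5 carried the null RNA in Cy5, so the fitted day 0.5 values include an adjustment for dye and differ from the array means.

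**Figure D4:**
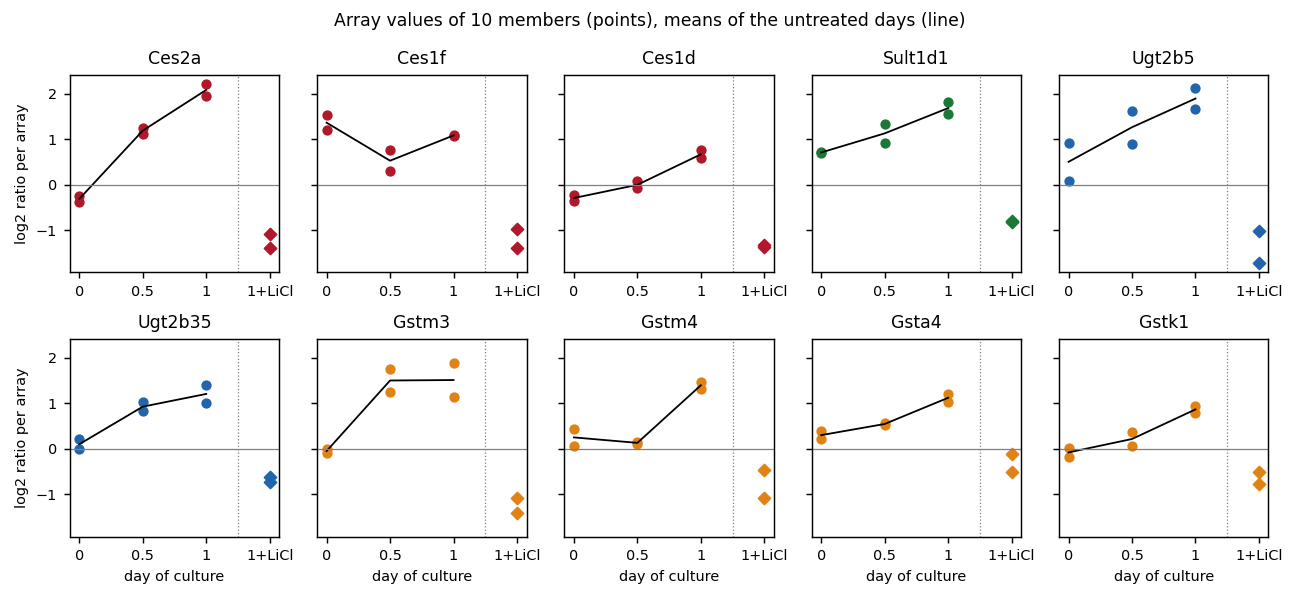
Log2 ratio (y axis) on each array of 10 members by day of culture (x axis), with a line through the means of the 3 untreated groups and diamonds for day 1 with LiCl as deposited. Ces2a, Ces1d and Gstk1 start below or near 0, Sult1d1 and Ces1f start above it, Gstm3 is high by day 0.5, and Gstm4 is high only on the day 1 arrays.

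With LiCl, the deposited ratios of the same genes had the opposite sign. The direction of these arrays is not settled: their correlations with the untreated arrays were all below 0 (r from -0.493 to -0.086 over 12 pairs, across all probes), and sources disagree on whether their other channel held LiCl-treated wild-type cells or control cells. As deposited, 16 members were lower (6 Ces, 4 Ugt, 2 Sult and 4 Gst genes), against 1.21% of all genes lower. The block gave 26 lower (6 Ces, 9 Ugt, 3 Sult and 8 Gst genes), against 2.78% of all genes. Without either LiCl array 0 passed in the limma fit (31 were lower at an unadjusted p under 0.05 on all 8 arrays, against 6.24% of all genes), and without either day 0 array 2 passed. With the sign turned, 24 members were higher, against 2.32% of all genes higher. The family medians were -0.71, -0.31, -0.01 and -0.35 for Ces, Ugt, Sult and Gst as deposited, and 0.71, 0.31, 0.01 and 0.35 turned. Among the genes that passed, Ces1g with -1.39 and -1.44 and Ces1d with -1.33 and -1.38 as deposited lay furthest from 0. Ces1d thus had a larger size with LiCl (1.36 ± 0.10, sign not settled) than at day 1 without it (0.66 ± 0.10). Ugt2b5, with -1.02 and -1.73, did not pass. Sult1b1, with -0.72 and -0.99, passed with LiCl and not at day 1 without it.

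The change from day 1 to day 1 with LiCl depends on that sign and on what the other channel held, of which only the sign was varied. As deposited 31 members fell, against 8.53% of all genes that fell. With the sign turned 6 fell, against 3.09% of all genes, and 1 rose, against 3.74%. The 6 were Sult1d1 (-0.87), Ces2a (-0.84), Gstm6 (-0.83), Gsta4 (-0.80), Gstt1 (-0.70) and Sult2b1 (-0.60), each of which also fell as deposited. Ces1d rose by 0.70 with the sign turned (adjusted p = 0.0271) and fell by 2.02 as deposited. This change and the day 1 result share the day 1 arrays.

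**Figure D5:**
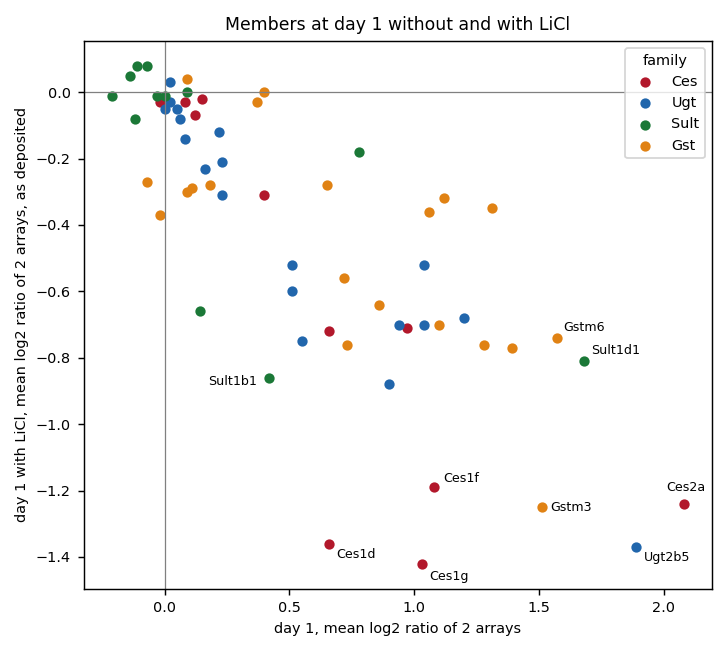
Mean log2 ratio at day 1 (x axis) and at day 1 with LiCl as deposited (y axis) for the 62 genes, coloured by family, with the mean of 2 arrays for each value. Of the 62 genes 49 lie above 0 on the x axis and below 0 on the y axis, against 4644 of 15123 genes.

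Genes that supply or work beside these enzymes were described at day 1 from lists that leave out the 62 genes, and their counts stand against the 9.38% of all genes higher and 11.1% lower given above (11.8% higher with the block). Of 16 measured targets of Nrf2, the transcription factor of the antioxidant response, 9 were higher and 1 lower (median 0.74). The epoxide hydrolase Ephx1 (1.59 ± 0.10), the sulfiredoxin Srxn1 (1.40 ± 0.10), the quinone reductase Nqo1 (1.37 ± 0.10) and Gclc (1.37 ± 0.10), the catalytic subunit of the enzyme that limits glutathione synthesis, led them. Of 15 genes that make or carry the conjugated groups 5 were higher and 1 lower (median 0.61), among them Ugp2 (1.09 ± 0.17), which makes UDP-glucose, Slc35d1 (1.21 ± 0.13), which carries UDP-glucuronic acid into the endoplasmic reticulum, and Gclm (0.69 ± 0.15). With the block 9 were higher. Of 21 other conjugation and detoxification genes 8 were higher and 2 lower (median 0.10), with Ephx2 at 1.48 ± 0.19 and the microsomal transferase Mgst3 at 1.01 ± 0.12. Of 10 transporters of conjugates and drugs 4 were higher and 0 lower (median 0.44), with the conjugate exporter Abcc2 at 1.09 ± 0.10 and Abcg2 at 0.65 ± 0.16. Of 26 regulators of such genes 7 were higher and 1 lower (median 0.24), with the xenobiotic receptor Nr1i3 at 0.67 ± 0.11, the bile acid receptor Nr1h4 at 0.75 ± 0.18, Hnf4g at 0.63 ± 0.10 and Foxa3 at -0.88 ± 0.15. All genes had a median of 0.00, and several genes stand in more than 1 list.

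Markers of cell types and of the cell cycle are given beside the members, and their part in these results was not tested. Their counts stand against the shares of all genes given above, which at day 1 were 9.38% higher and 11.1% lower. Of 15 enterocyte genes, 2, 2 and 9 were higher and 0 lower on the 3 untreated days in order (medians 0.43, 0.47 and 0.81), and 2 were lower with LiCl as deposited (median -0.63). With the block the enterocyte counts were 3, 5 and 13 higher and, with LiCl, 9 lower. All 21 cell cycle genes were lower at day 1 (median -1.56), and 1 was lower and 1 higher at day 0 (2 higher with the block). With LiCl as deposited 7 cell cycle genes were higher (median 0.64) and 13 with the block, against 1.37% and 3.31% of all genes higher. Of 8 Paneth cell genes 7 were lower at day 0 (median -1.16), 4 at day 0.5 (median -1.04, and 6 with the block) and 5 at day 1, where 1 was higher (median -1.03). Of 14 stem cell genes 2 were lower at day 0, 2 at day 0.5 (6 with the block) and 8 at day 1 (median -1.03), and 1 was higher with LiCl as deposited. At day 1, 6 of 9 goblet cell genes were higher (median 0.60), and 11 of 18 enteroendocrine genes were higher and 1 lower (median 0.75). With LiCl the Paneth, goblet, enteroendocrine and immune genes had 0 calls in the limma fit, with unadjusted p under 0.05 for 1, 3, 2 and 0 and block calls of 1, 1, 0 and 0. Tuft cell, endothelial and red blood cell genes had 0 calls at day 1 in the limma fit among 10, 9 and 5 genes, with unadjusted p under 0.05 for 1, 0 and 1 and block calls of 0. Of 13 immune genes 10 were lower at day 0 (median -1.30), 2 at day 0.5 (4 with the block) and 2 at day 1. Of 14 mesenchymal genes Vim (-0.58) and Dcn (-0.51) were lower at day 0, Vim (0.77) was higher at day 0.5, and Vim (1.02) and Fbln1 (0.65) were higher at day 1. The summed levels of such markers cannot be given, because the values are ratios.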

How the data were processed

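The values that the authors deposited are log ratios of the array's channels, with their order unstated, for each probe of 8 MEEBO long-oligonucleotide arrays, read here as log2, an assumed base. How background was corrected and the ratios normalized is not given in the sources used here, and without intensities the signal over background is unknown. Of 38467 probes 22941 had 1 gene symbol, 0 several and 15526 none. RefSeq's gene table held all 22941 identifiers, with 0 changes of symbol. Control probes with a symbol (636) were left out, which left 22305 probes of 15123 genes. Columns of other series numbered 0.

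Arrays were centred on their median and probes of a gene averaged. limma 3.58.1 in R 4.3.3 fitted the 4 group means and the labelled dye of the null RNA on all 8 arrays, with eBayes (3 residual and 4.09 prior degrees of freedom) and Benjamini-Hochberg adjustment over 15123 genes, called at 0.05. Errors are limma standard errors. The null RNA was in Cy5 on the first and Cy3 on the second array of day 0 and day 1, the reverse with LiCl, and in Cy5 on both of day 0.5, where the design text describes dye swaps. Null over wild type is taken as likely because the labels list the null RNA as channel 1. Arrays of a group with opposite dyes correlated above 0, which shows a shared orientation and not which of the directions it is. Groups and replicate numbers came from the titles. Deviations of same-numbered arrays correlated at 0.21 to 0.278 in all 6 pairs of groups, with LiCl as deposited. The pairs with LiCl change sign if the LiCl sign is turned. A pairing by number thus comes from the data and not from the labels. The main fit ignored it, and the replicate block took it in as an alternative.

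Named were, per comparison and family, the members called (at most 10), or the 1 furthest from 0 where none was called, and members whose probes disagreed. Of each other list the 4 called genes furthest from 0 at most were named. The members, lists and tests were chosen with earlier results of these data known. The fitting code was tested on simulated data. Alternatives were the dye term, the dye of the second day 0.5 array, scaling, centring, the replicate block, the probe summary, the groups fitted, the LiCl sign, the prior, the threshold and each array left out. Python 3.11.15, numpy 2.4.6, pandas 2.3.3 and matplotlib 3.10.9 did the rest. Protein sequences and probe positions were not analysed here.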

Additional observations from a re-analysis of the deposited data

Results flagged for a closer look

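Ratios that differed between 2 times of culture, by a test of the difference in the limma fit, are given here as values. From day 0 to day 1 the ratio of null to wild type rose by 2.40 for Ces2a, 0.96 for Ces1d, 1.10 for Ugt2b35 and 0.98 for Sult1d1. Among the Gst genes it rose by 1.56 for Gstm3, 1.48 for Gstm6, 1.14 for Gstm4, 1.07 for Gstm1, 1.05 for Gstm2, 0.95 for Gstt3, 0.94 for Gstk1, 0.84 for Gstt1, and 0.82 for both Gsta3 and Gsta4. From day 0.5 to day 1 it rose by 1.46 for Gstm4. From day 1 to day 1 with LiCl 7 members changed under either sign of the LiCl arrays. What their other channel held was not varied, and if it was control cells the change compares unlike ratios. As deposited these changes were -3.32 for Ces2a, -2.49 for Sult1d1, -2.31 for Gstm6, -2.02 for Ces1d, -1.44 for Gsta4, -1.41 for Gstt1 and -0.96 for Sult2b1. All units are log2 ratios. Groups of 2 arrays are too small to look for single arrays that stand apart.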

How the results depend on the processing

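The 118 values of members called, at most 10 per family and comparison, gave 1961 values under the alternatives other than the turned LiCl sign. Of these 1672 stayed past the threshold, 289 kept their direction and missed it, and 0 changed direction. The 28 members called at day 1 became 10 to 30 when 1 array was left out (10 without the first day 1 array) and 16 at 2-fold or more. Calls of Ces2a, Ces2e, Gsta4, Gstk1, Gstm3, Gstm4, Gstm6, Gstt1, Sult1d1 and Ugt2b35 at day 1 passed in all 17 refits. The day 1 calls of Gsta3 and Gstm2 fell outside that limit and were not followed through the refits.

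At day 0 the 2 calls became 5 with the replicate block, 1 with the probe of largest mean absolute ratio, 1 without the LiCl arrays, 0 to 2 with 1 array left out, 0 at an adjusted p under 0.01 and 1 at 2-fold or more. At day 0.5 the 5 calls became 10 without the dye term, 2 with arrays scaled to equal spread, 8 with the block, 3 with that single probe, 2 without the LiCl arrays, 0 to 2 with 1 array left out and 0 at an adjusted p under 0.01. With LiCl the 16 calls became 26 after scaling, 26 with the block, 0 to 15 with 1 array left out, 1 at an adjusted p under 0.01 and 5 at 2-fold or more. The 25 calls over the untreated groups became 13 to 26 with 1 array left out and 2 at 2-fold or more. From day 0 to day 0.5, 0 calls became 1 without the dye term, 2 with the second day 0.5 array taken as a dye swap and 1 with the block. From day 0 to day 1 the 14 became 4 after scaling, 23 with the block, 1 to 16 with 1 array left out, and 7 both at an adjusted p under 0.01 and at 2-fold or more. From day 0.5 to day 1 the 1 became 5 without the dye term, 4 with the dye swap, 0 after scaling, 4 with the block, 2 without the LiCl arrays, 0 to 2 with 1 array left out and 0 at an adjusted p under 0.01. From day 1 to LiCl the 31 became 7 with the sign turned. Turning that sign also enters the shared spread and dye term of the other comparisons, with 31 members called at day 1, 8 at day 0.5, and 20 and 7 for the changes to day 1 from day 0 and from day 0.5. By family, the block moved the Ugt calls from 0 to 3 at day 0, 1 to 3 at day 0.5, 4 to 9 with LiCl, 1 to 5 from day 0 to day 1 and 0 to 1 from day 0.5 to day 1, the Gst calls from 4 to 8 with LiCl and 1 to 3 from day 0.5 to day 1, the Sult calls from 1 to 2 at day 0.5 and from day 0 to day 1, and the Ces calls from 0 to 1 from day 0 to day 0.5. The cause of these shifts was not tested, beyond fewer arrays where some were left out.

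Family medians moved beyond the spread of their arrays as follows. For Ces, scaling gave 0.52 at day 1 and -1.04 with LiCl, and leaving out 1 array gave -0.06 to 0.05 at day 0, 0.21 to 0.58 at day 0.5 and 0.54 to 0.78 at day 1. For Ugt, the single probe gave 0.14, 0.31, 0.83 and -0.52 in the 4 groups, scaling gave -0.47 with LiCl, and leaving out 1 array gave 0.09 to 0.12 at day 0, 0.23 to 0.48 at day 1 and -0.36 to -0.21 with LiCl. For Sult, leaving out 1 array gave 0.03 to 0.09 at day 0, -0.08 to 0.15 at day 0.5 and -0.08 to 0.01 with LiCl. For Gst, scaling gave 0.27 at day 0.5, 0.57 at day 1 and -0.53 with LiCl, the single probe gave 0.28 and the fit without the LiCl arrays 0.27 at day 0.5, and leaving out 1 array gave -0.08 to 0.15 at day 0, 0.22 to 0.27 at day 0.5 and -0.47 to -0.35 with LiCl. With the LiCl sign turned the medians were 0.71 (Ces), 0.31 (Ugt), 0.01 (Sult) and 0.35 (Gst), and the day 1 LiCl values were 1.36 (Ces1d), 0.72 (Ces1e), 1.19 (Ces1f), 1.42 (Ces1g), 1.24 (Ces2a), 0.71 (Ces2e), 0.64 (Gstk1), 1.25 (Gstm3), 0.77 (Gstm4), 0.74 (Gstm6), 0.86 (Sult1b1), 0.81 (Sult1d1), 0.75 (Ugt1a5), 0.70 (Ugt1a9), 0.88 (Ugt2b34) and 0.68 (Ugt2b35). The change from day 1 then was 0.70 (Ces1d), 0.06 (Ces1e), 0.11 (Ces1f), 0.38 (Ces1g), 0.03 (Gstt3), 0.44 (Sult1b1), 0.09 (Ugt1a10), 0.21 (Ugt1a5), 0.08 (Ugt1a6b) and 0.01 (Ugt2a3).

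Over all genes, the block moved the calls from 337 to 610 at day 0, 66 to 237 at day 0.5, 390 to 922 with LiCl, 20 to 56 from day 0 to day 0.5, 1269 to 1964 from day 0 to day 1 and 301 to 633 from day 0.5 to day 1. Without the dye term day 0.5 had 341 and the changes from and to it 116 and 611, and with the dye swap 321, 82 and 577. Scaling gave 1780 of 3103 at day 1, 1444 with LiCl, and 3, 384 and 0 for the changes between untreated groups. The single probe gave 13 and the fit without the LiCl arrays 5 from day 0 to day 0.5. The turned sign gave 743 with LiCl and 1033 of 2856 for the change to it, and also moved day 0 to 525, day 0.5 to 238 and the changes from and to day 0.5 to 91 and 690. At an adjusted p under 0.01 the counts were 85, 12, 1786 and 22 in the 4 groups, 1449 of 2820 for the untreated mean, and 0, 422, 44 and 1668 for the changes in the order given. Leaving out 1 array gave 26 to 305 for day 0, 9 to 50 for day 0.5, 912 to 3270 for day 1, 4 to 301 for day 1 with LiCl, 1009 to 2865 for the untreated mean, 0 to 16 for the change from day 0 to day 0.5, 110 to 1358 for the change from day 0 to day 1, 0 to 287 for the change from day 0.5 to day 1 and 1484 to 2824 for the change to LiCl. Each group has 2 arrays, which limits the precision, and signal over background is unknown.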
